A study of Mus musculus with 12 samples.

Results

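The genes described here are 10 members of the cholesterol export pathway of macrophages and of its regulators, the liver X receptors (LXRs). They are Abca1, Abcg1, Abcg4, Scarb1, Nr1h3, Nr1h2, Srebf1, Mylip, Apoe and Apoc2. They were found by name among the probes of a one-colour Agilent array that covered 27669 named genes. All 10 were on the array, with 11 probes, because Mylip had a pair of them, and all 10 were among the 16744 genes tested.

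RNA came from peritoneal macrophages of female mice aged 10 weeks, drawn into the abdomen by thioglycollate, an irritant, and collected 96 h later. Cells of every group were loaded overnight with cholesterol at 10 µg/ml and then kept with polymyxin B, which binds bacterial lipopolysaccharide, at 25 µg/ml. The 4 groups were C57BL/6 control, C57BL/6 with apoA-I at 10 µg/ml for 2 h, MyD88-null control, and MyD88-null cells given the same apoA-I dose and time. MyD88 is the adaptor that carries signals from most Toll-like receptors, and the series compares the apoA-I response with and without it. Each group held 3 arrays, numbered as replicates 1 to 3, and the design text describes 3 replicate experiments of 4 samples each. The labels do not say whether the cells of a replicate came from separate mice, so the p-values speak only of the spread among these samples, which may be technical. The titles and source names gave the groups. The free-text descriptions gave the opposite treatment for 2 samples. One was control replicate 2 of C57BL/6 and the other was the apoA-I replicate 2 of MyD88-null, and results that turn on this are given both ways.

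Macrophages that take up lipoproteins cannot break down the sterol ring and have to pass cholesterol on. ABCA1 hands cholesterol and phospholipid to lipid-poor apoA-I, ABCG1 and ABCG4 pass sterol to lipidated particles, and SR-BI, the product of Scarb1, exchanges cholesterol with high-density lipoprotein in both directions. Sterol-loaded cells make oxysterols, which activate LXR alpha (Nr1h3) and LXR beta (Nr1h2). The receptors bind DNA with RXR at repeated half-sites and raise Abca1, Abcg1, Srebf1, Mylip, Apoe and Apoc2.

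Binding sites for these receptors are known near the transcription starts of Abca1 and Srebf1. RefSeq promoter windows of build GRCm38.p6, running from 250 bases before a start to 50 after it, were given for 7 of the 10 genes (Abca1, Nr1h2, Nr1h3, Apoe, Apoc2, Mylip and Srebf1). The repeat described for LXR at Abca1 was searched on both strands as GGTTACT, then any 2 bases, then CGGTCA. It was chosen with these sequences in view, so its match at Abca1 is by construction. It was in 3 of 32851 windows, or 0.00913% of them: those of Abca1, Srebf1 and Fasn, the fatty acid synthase gene. In all 3 it lay on the strand opposite to the gene. Its 3 copies are printed with a few flanking bases, read 5′ to 3′ along the gene's own strand, with the match in capitals.
Abca1, chr4:53159941-53159970, minus strand: acagcgttTGACCGGTAGTAACCccggcgc
Srebf1, chr11:60210632-60210661, minus strand: gacgacagTGACCGCCAGTAACCccagcgc
Fasn, chr11:120824751-120824780, minus strand: ggccacgaTGACCGGTAGTAACCccgcctg

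The 250 bases before the start are printed whole for the 2 members that hold the repeat, because their values with apoA-I are compared further on. At Abca1 the match ran from base -67 to base -53, counted from the start, and at the Srebf1 start printed here from base -182 to base -168.
Abca1, chr4:53159896-53160145, minus strand: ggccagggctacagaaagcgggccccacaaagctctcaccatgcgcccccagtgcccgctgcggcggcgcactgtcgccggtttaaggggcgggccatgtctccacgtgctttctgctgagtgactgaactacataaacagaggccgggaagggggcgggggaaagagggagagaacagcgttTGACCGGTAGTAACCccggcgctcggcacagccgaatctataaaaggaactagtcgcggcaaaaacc
Srebf1, chr11:60210472-60210721, minus strand: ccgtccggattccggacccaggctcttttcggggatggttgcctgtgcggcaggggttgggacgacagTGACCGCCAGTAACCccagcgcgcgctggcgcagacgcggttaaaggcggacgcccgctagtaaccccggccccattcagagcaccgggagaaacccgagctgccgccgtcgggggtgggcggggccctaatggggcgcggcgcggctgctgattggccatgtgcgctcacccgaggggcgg

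A shorter form that ends after CGG was in 9 windows (0.0274%) and occurred at 2 places in that Srebf1 window. Every place of the longer form is also a place of the shorter one. The plain direct repeat, AGGTCA, any 4 bases and AGGTCA again, was in 5 windows (0.0152%), none of them of these genes. A match describes letters only, and a window without one says nothing about the receptors.

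Levels are processed intensities on the log2 scale, set so that 0 is the 75th percentile of the array. Levels are compared only within a probe. Before scaling, the 75th percentile was 199.5 at the lowest, on replicate 1 of MyD88-null with apoA-I, and 1408 at the highest, and 57.55% to 73.62% of the probes were well above background, with the highest share on that same dimmest array. The probe for Myd88 itself read 2.96 to 3.49 in C57BL/6 and 1.4 to 2.10 in MyD88-null controls, and 3.41 to 4.29 and 2.43 to 3.25 with apoA-I, so the genotypes did not overlap within a treatment. The difference was -1.52 in controls and -1.15 with apoA-I (limma adjusted p = 0.215 and 0.942, or 0.00397 and 0.0244 with the replicate experiment as a block), and no source used here says whether this probe lies in the deleted part. All 7 macrophage markers were well above background on all 12 arrays. B, T and mast cell and mesothelial or fibroblast markers were also measured, and their summed level relative to the 75th percentile was 4.14 to 8.96 for 5 B cell genes, 0.685 to 2.96 for 6 T cell genes, 2.21 to 6.24 for 5 mast cell genes, and 35.0 to 142 for 8 mesothelial or fibroblast genes. B and mast cell sums were lower in MyD88-null than in C57BL/6 controls, at 4.50 to 5.22 against 7.54 to 8.96 and 2.21 to 4.07 against 4.28 to 5.42. Neutrophil genes summed to 1.10 to 1.71 (6 of 7 on the array). The sum of 5 resident peritoneal macrophage genes was higher with apoA-I, at 131 to 192 against 43.2 to 51.6 in C57BL/6 and 82.8 to 114 against 30.8 to 47.2 in MyD88-null cells. Of 4 of them tested, F10 and Serpinb2 rose on average, by 1.56 and 3.15 (limma adjusted p = 0.000608 and 0.037). Gata6 and Icam2, also tested, did not rise in C57BL/6 cells (group means 1.53 to 1.41 and 1.11 to 1.04). In MyD88-null cells Gata6 went from 0.76 to 1.28 with overlapping arrays, and Icam2 was nearly unchanged. The higher sum thus does not show that the list rose as a whole. Cd14, a macrophage marker, also rose on average, by 1.31 (adjusted p = 0.0308), from group means of 4.58 to 6.19 in C57BL/6 and 3.90 to 4.91 in MyD88-null cells. All 6 T cell genes had positive values with apoA-I in MyD88-null cells (0.32 to 1.25, median 0.82), and in C57BL/6 cells they ran from -0.34 to 0.38. None passed without the block, and with it Cd3e and Lck did on average (0.67 and 0.52, adjusted p = 0.0343 and 0.0173) and Lck in MyD88-null cells (0.84, adjusted p = 0.0215). With the block, 11.5% of all genes passed on average and 4.07% in MyD88-null cells. In MyD88-null controls the block also called Serpinb2 and the fibroblast gene Pdgfra lower than in C57BL/6 (-3.81 and -2.69, adjusted p = 0.0423 and 0.0268). The same fit called 0.591% of all genes. The 8 mesothelial or fibroblast genes had a median of -0.29 there and reached up to 0.20. The resident peritoneal macrophage genes tested had a median of -0.51 and reached up to 0.18. The part of these markers in the results was not tested. In whole-well RNA, fewer cells of a type and less RNA per cell cannot be told apart. All members were well above background on all 12 arrays except Abcg4, and no member was saturated.

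**Figure D1:**
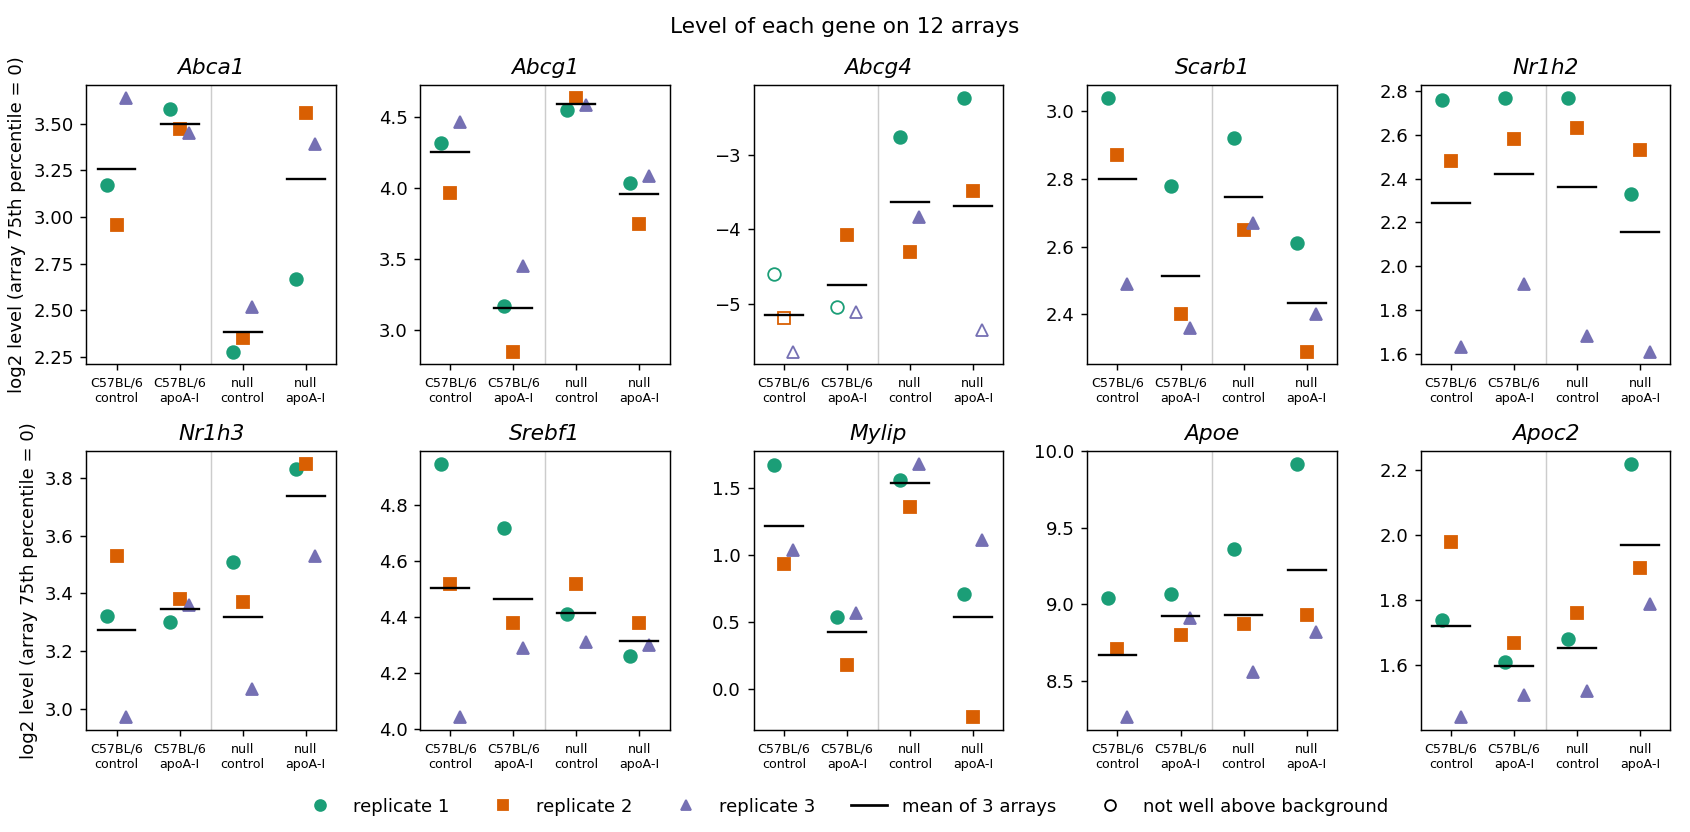
Level of each of the 10 genes on the 12 arrays (log2, with 0 at the array's 75th percentile; each panel has its own axis), by group, with symbols for replicate number and a bar at the mean of 3 arrays. Abcg1 is lower with apoA-I in both genotypes without overlap, while open symbols mark the 6 arrays on which Abcg4 was not well above background.

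Abcg1 fell with apoA-I. The Abcg1 probe lies at chr17:29310847-29310906 on the plus strand of build mm7, the build of the array files, for which exon annotation was not used here. In C57BL/6 cells its level was 4.32, 3.97 and 4.47 in control replicates 1, 2 and 3, and 3.17, 2.85 and 3.45 with apoA-I. The MyD88-null values were 4.55, 4.64 and 4.59 in control cells and 4.04, 3.75 and 4.09 after apoA-I. Every treated array was below every control array of its genotype, and the MyD88-null treated arrays overlapped the C57BL/6 controls. The order of the group means was MyD88-null control (4.59 ± 0.0438, SD, n = 3), C57BL/6 control (4.25 ± 0.259), MyD88-null with apoA-I (3.96 ± 0.181) and C57BL/6 with apoA-I (3.15 ± 0.300).

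Averaged over both genotypes, Abcg1 changed by -0.86 on the log2 scale (SE 0.153, 95% confidence interval -1.20 to -0.52), 1.82-fold lower, with an adjusted p of 0.0132 in limma over all genes. It was lower in 6 of 6 pairs of a genotype and a replicate number, as were 12.0% of all genes. Abcg1 was the 1 member of 10 past the threshold of 0.05 in this averaged comparison, where 3.15% of all genes were (2.50% higher and 0.651% lower). With the replicate experiment as a block, 2 of 10 members passed, Abcg1 (adjusted p = 0.00209) and Mylip, against 11.5% of all genes. At an unadjusted p under 0.05 there were 3 members, and 13.2% of all genes. Of the genes called, 79.3% were higher. That share was 57.1% with the block, 68.3% after normexp background correction and quantile normalization, 72.4% after quantile normalization alone and 88.8% after centring on the array median.

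In C57BL/6 cells alone the change of Abcg1 was -1.10 (SE 0.216, interval -1.58 to -0.62), 2.14-fold lower. Its adjusted p was 0.0544, just outside the threshold, and 0.00799 with the experiment as a block, which called it. Called members were thus 0 of 10 without the block and 1 of 10 with it, against 0.830% and 3.40% of all genes. At an unadjusted p under 0.05 there were 2 of 10, and 7.42% of all genes. In MyD88-null cells the change was -0.63 (SE 0.216, interval -1.11 to -0.15), with an adjusted p of 0.359, or 0.0606 with the block. None of the 10 members passed there, against 1.14% of all genes (4.07% with the block), although 3 of 10 had an unadjusted p under 0.05 and 8.67% of all genes did. Within a slide, the C57BL/6 change was -1.15 on slide 1 and -1.12 on slide 2, and the MyD88-null change was -0.59 on slide 3 and -0.51 on slide 5. On slide 3 apoA-I replicate 1, the dimmest array, was set against control replicate 2. The values of slides 1, 2 and 5 are also pairs of a replicate number, so they are no separate evidence.

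The call on the average ended under some choices. With the treatments of the descriptions the value was -0.68 (adjusted p = 0.974), without the 2 samples in conflict -0.88 (adjusted p = 0.0576), with all probes kept -0.86 (adjusted p = 0.0569), and after centring on the array median -1.12 (adjusted p = 0.17). It held when any of the 12 arrays was left out, with values from -0.94 to -0.79 and adjusted p from 0.0138 to 0.0441.

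Abca1, the direct partner of apoA-I, was not called in any of the 6 comparisons, with or without the block. Its probe lies at chr4:53044891-53044950 on the minus strand (mm7). In C57BL/6 cells its level was 3.17, 2.96 and 3.64 in control replicates 1, 2 and 3, and 3.58, 3.47 and 3.45 with apoA-I. The MyD88-null values were 2.28, 2.35 and 2.52 in control cells and 2.67, 3.56 and 3.39 after apoA-I. The C57BL/6 groups overlapped, whereas in MyD88-null cells the lowest treated array stood above the highest control. The order of the means was C57BL/6 with apoA-I (3.50 ± 0.0689, SD, n = 3), C57BL/6 control (3.26 ± 0.345), MyD88-null with apoA-I (3.21 ± 0.469) and MyD88-null control (2.38 ± 0.121), and the first 3 means differed by less than their spread.

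The change of Abca1 was 0.24 (SE 0.262, interval -0.34 to 0.83, adjusted p = 1) in C57BL/6 cells and 0.83 (SE 0.262, interval 0.24 to 1.41) in MyD88-null cells. The latter, 1.77-fold, had an adjusted p of 0.295, or 0.0854 with the block. The average over genotypes was 0.54 (SE 0.185, interval 0.12 to 0.95), with an adjusted p of 0.212, or 0.0705 with the block. None of these passed. With the treatments of the descriptions the values were -0.04 in C57BL/6 cells, 0.36 in MyD88-null cells and 0.16 on average. Without the 2 samples in conflict they were 0.10, 0.65 and 0.37, and after centring on the array median 0.18, 0.38 and 0.28. Abca1 passed on average only with slide as a random block (0.57, adjusted p = 0.0332), among the alternatives run. Without MyD88-null apoA-I replicate 1, the array that stood apart in brightness, its MyD88-null change was 1.09 (adjusted p = 0.0755).

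Within a replicate number, Abca1 and Abcg1 went opposite ways in 5 of 6 pairs. In C57BL/6 replicate 1 Abca1 differed by 0.41 and Abcg1 by -1.15 between treated and control cells. In replicate 2 the values were 0.51 and -1.12. In replicate 3 both were negative, at -0.18 and -1.02. In MyD88-null cells Abca1 and Abcg1 differed by 0.39 and -0.50 in replicate 1, by 1.21 and -0.88 in replicate 2, and by 0.88 and -0.51 in replicate 3. Abca1 was thus higher in 5 of 6 pairs, and 27.9% of all genes were higher in at least 5. The replicate 2 pairs of both genotypes each hold 1 of the samples whose description gives the other treatment. Without these pairs the genes went opposite ways in 3 of 4.

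The change of Abca1 minus that of Abcg1 cancels any scaling of a whole array. With the groups of the titles it was positive in 6 of 6 pairs, and in 4 of 4 without the pairs of replicate 2. It ran from 0.84 in C57BL/6 replicate 3 to 2.09 in MyD88-null replicate 2. Its mean was 1.34 ± 0.435 (SD, n = 3) in C57BL/6 and 1.46 ± 0.601 in MyD88-null cells, so the genotypes differed by less than the spread between replicates. After quantile normalization the 6 values ran from 0.92 to 2.10, and in the deposited table from 0.86 to 2.09. Abcg1 was lower in 6 of 6 pairs under all 5 scalings tried, while Abca1 was higher in 5 of 6 under 4 of them and in 4 of 6 after centring on the array median. The contrast between these genes was part of how they were chosen, so it is given without a test.

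**Figure D2:**
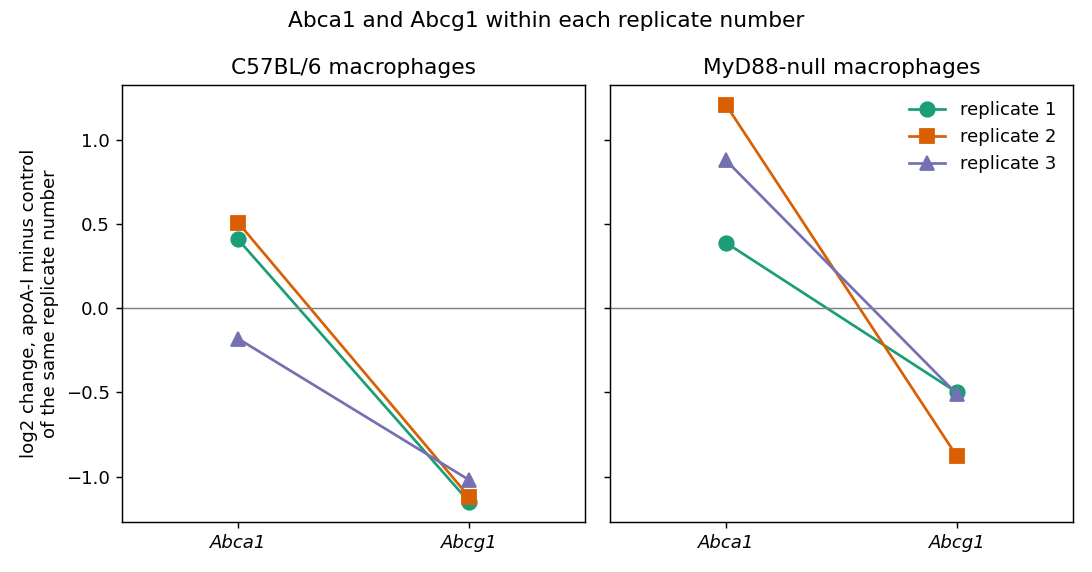
Log2 change of Abca1 and of Abcg1 (apoA-I minus control of the same replicate number) in C57BL/6 and MyD88-null macrophages, with a line joining both genes of a pair. All 6 lines slope down, and in C57BL/6 replicate 3 Abca1 is below 0 as well, at -0.18.

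Abcg4, a close relative of Abcg1 best known from the brain, was dim. It was well above background on 0 of 3 C57BL/6 control arrays, 1 of 3 with apoA-I, 3 of 3 MyD88-null controls and 2 of 3 MyD88-null arrays with apoA-I. Its level was -4.60, -5.18 and -5.63 in C57BL/6 controls and -5.04, -4.07 and -5.10 with apoA-I. The MyD88-null values were -2.77, -4.30 and -3.84 in control cells and -2.24, -3.49 and -5.34 after apoA-I. The control groups of the genotypes did not overlap. Set against a bound for the C57BL/6 controls, MyD88-null control cells were 2.37-fold brighter. The bound on each C57BL/6 array was the larger of 2 values, its own and the lowest of any probe well above background. That lowest value need not be the detection limit of the Abcg4 probe. The fit gave 1.50 (interval -0.07 to 3.07) and no call for this difference (adjusted p = 1, or 0.363 with the block). The probe was kept only through the MyD88-null controls, where it was high, so this difference is a description. With apoA-I its change in MyD88-null cells was -0.05 (interval -1.62 to 1.52), and none is given for C57BL/6 cells, whose controls had only a bound.

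Scarb1 was slightly lower with apoA-I throughout. Its level was 3.04, 2.87 and 2.49 in C57BL/6 controls and 2.78, 2.40 and 2.36 with apoA-I, and 2.92, 2.65 and 2.67 in MyD88-null controls and 2.61, 2.29 and 2.40 with apoA-I. It was lower in 6 of 6 pairs, as were 12.0% of all genes. The pairs differed by 0.13 to 0.47, and the MyD88-null groups did not overlap. Its average change was -0.30 (SE 0.150, interval -0.63 to 0.04), which did not pass (adjusted p = 0.461, or 0.0889 with the block).

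Neither LXR gene passed the test. Nr1h3 stood at 3.32, 3.53 and 2.97 in C57BL/6 controls and at 3.30, 3.38 and 3.36 with apoA-I, groups that overlapped. In MyD88-null cells it stood at 3.51, 3.37 and 3.07 in controls and at 3.83, 3.85 and 3.53 with apoA-I, and every treated array was above every control. Its change was 0.07 (SE 0.208, interval -0.39 to 0.53) in C57BL/6 and 0.42 (SE 0.208, interval -0.04 to 0.88) in MyD88-null cells, with adjusted p of 1 and 0.642. After centring on the array median the MyD88-null value was -0.03, so even its direction depended on the scaling.

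Nr1h2 varied more between replicate numbers than between groups. It read 2.76, 2.48 and 1.63 in C57BL/6 controls, 2.77, 2.58 and 1.92 with apoA-I, 2.77, 2.63 and 1.68 in MyD88-null controls, and 2.33, 2.53 and 1.61 after their apoA-I treatment. Replicate 3 was the lowest in every group, and all its arrays were scanned on day 3, apart from those of replicates 1 and 2. Its change was 0.13 (interval -0.79 to 1.05) in C57BL/6 and -0.20 (interval -1.12 to 0.72) in MyD88-null cells, and 0.13 ± 0.144 (SE) and -0.20 ± 0.144 with the block, adjusted p = 0.726 and 0.416.

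Among the other LXR targets of the 10, Mylip passed with the experiment as a block. Mylip, which encodes a ubiquitin ligase, was lower with apoA-I. Its brighter probe, at chr13:44861360-44861419 on the plus strand (mm7), read 1.67, 0.93 and 1.04 in C57BL/6 controls and 0.54, 0.18 and 0.57 with apoA-I. The MyD88-null values were 1.56, 1.36 and 1.68 in control cells and 0.71, -0.21 and 1.11 after apoA-I. Treated arrays did not overlap controls in either genotype. Mylip was lower in 6 of 6 pairs, as were 12.0% of all genes. Its average change was -0.89 (SE 0.236, interval -1.41 to -0.36), 1.85-fold lower, with an adjusted p of 0.0857. With the experiment as a block the adjusted p was 0.0143, which called it. The change was -0.78 (SE 0.334, adjusted p = 0.627) in C57BL/6 and -1.0 (SE 0.334, adjusted p = 0.338) in MyD88-null cells, and -0.19 in the latter with the treatments of the descriptions. Without MyD88-null apoA-I replicate 2, its lowest array, the MyD88-null change was -0.62 and the average -0.70 (adjusted p = 0.123), while without replicate 3 of that group the average was -1.03 and passed (adjusted p = 0.0409).

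The other Mylip probe, at chr13:44858383-44858442, was dim and well above background on 8 of 12 arrays, on 3 of 3 in both control groups and 1 of 3 in both treated groups. Its values ran the same way, with an average change of -0.94 (SE 0.493, adjusted p = 0.496).

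Srebf1, which encodes the transcription factor of fatty acid synthesis genes and shares the repeat of Abca1, did not pass in any comparison. It read 4.95, 4.52 and 4.04 in C57BL/6 controls and 4.72, 4.38 and 4.29 with apoA-I, and 4.41, 4.52 and 4.31 in MyD88-null controls and 4.26, 4.38 and 4.30 with apoA-I. The groups overlapped in both genotypes. Its average change was -0.07 (SE 0.169, interval -0.45 to 0.31). Fasn, the third gene with that repeat, changed by 0.05 on average (SE 0.175, adjusted p = 0.945). The average changes of the 3 genes were therefore 0.54, -0.07 and 0.05, none of them past the threshold.

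Apoe and Apoc2 encode apolipoproteins that macrophages secrete, and lie in the same cluster on chromosome 7. The Apoe probe was printed 10 times on each array, and its spots differed within an array by an SD of 0.0321 to 0.0698. Apoe read 9.04, 8.71 and 8.26 in C57BL/6 controls, 9.07, 8.80 and 8.91 with apoA-I, 9.36, 8.87 and 8.56 in MyD88-null controls, and 9.92, 8.93 and 8.82 with apoA-I. The spread between replicates, an SD of 0.135 to 0.605, was thus larger than that between spots, and the groups overlapped. Its average change was 0.27 (SE 0.239, interval -0.26 to 0.81, adjusted p = 0.753). Apoe was higher in 6 of 6 pairs as scaled here, as were 11.6% of all genes. After centring on the array median its change in MyD88-null cells was -0.16. After quantile normalization it was -0.06 in C57BL/6 and -0.02 in MyD88-null cells. Within a scan day, the MyD88-null change of Apoe was -0.44 on day 1, 1.05 on day 2 and 0.26 on day 3.

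Apoc2 read 1.74, 1.98 and 1.44 in C57BL/6 controls, 1.61, 1.67 and 1.51 with apoA-I, 1.68, 1.76 and 1.52 in MyD88-null controls, and 2.22, 1.90 and 1.79 with apoA-I. Its changes were -0.12 (interval -0.57 to 0.32) and 0.32 (interval -0.12 to 0.77). The MyD88-null groups did not overlap, yet the value there was -0.13 after centring on the array median. The array files place only 25 bases of this probe.

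**Figure D3:**
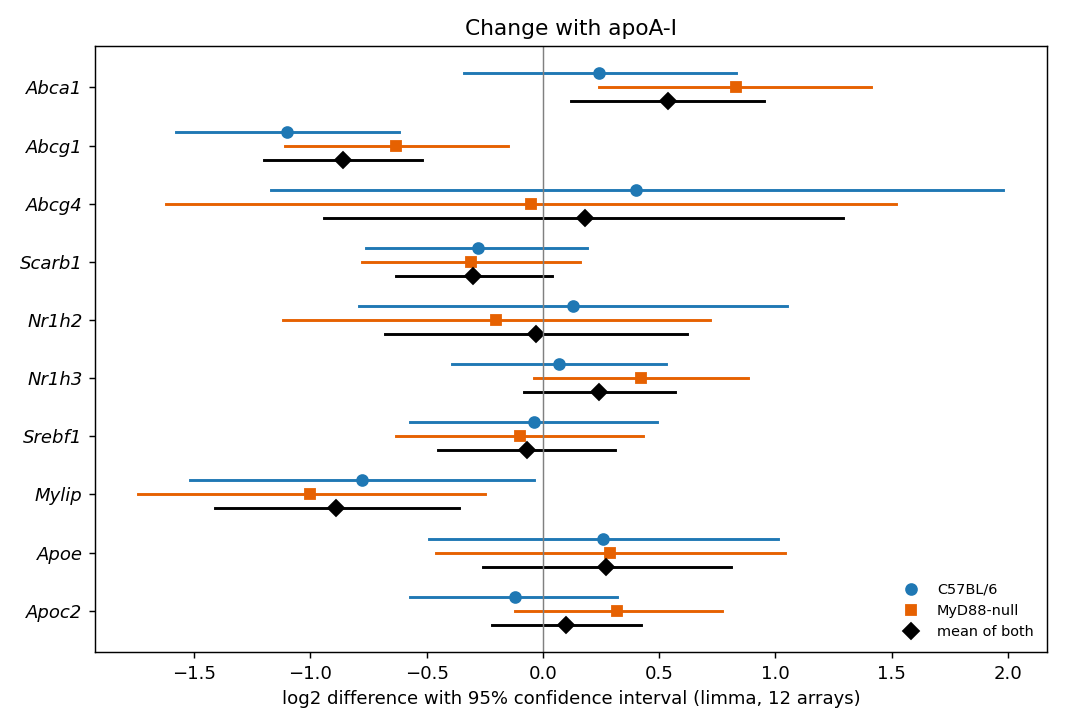
Log2 change with apoA-I of each gene, with its 95% confidence interval from limma, in C57BL/6 cells, MyD88-null cells and their average. Abcg1 and Mylip lie to the left of 0 in all 3 estimates and Abca1 to the right. The C57BL/6 interval of Abca1 includes 0, as do all intervals of the other 7 genes. The Abcg4 estimates use C57BL/6 control arrays on which its probe was not well above background.

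Over the 10 members, treated and control arrays did not overlap for 2 in C57BL/6 cells (Abcg1 and Mylip), where 13.1% of all genes were so. In MyD88-null cells they did not overlap for 6 (Abca1, Nr1h3 and Apoc2 higher, Abcg1, Mylip and Scarb1 lower), where 11.6% were. The median change of the members was 0.02, -0.08 and 0.03 in C57BL/6 cells, in MyD88-null cells and on average, beside -0.002, 0.052 and 0.046 for all genes. The 3 comparisons share their samples, as do the comparisons that follow.

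The difference between the responses of the genotypes was tested for every gene, and none passed, with or without the block. At an unadjusted p under 0.05 there were 0 of 10 members and 1.17% of all genes. For Abcg1 the MyD88-null response minus the C57BL/6 response was 0.46 (interval -0.22 to 1.15), for Abca1 0.58 (interval -0.24 to 1.41), for Mylip -0.22 (interval -1.27 to 0.84) and for Scarb1 -0.03 (interval -0.69 to 0.64). These intervals do not show that the responses were alike.

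Between genotypes, Abca1 was lower in MyD88-null than in C57BL/6 control cells on all 3 replicate numbers, by 0.89, 0.62 and 1.12. The difference was -0.88 (SE 0.262, interval -1.46 to -0.29), 1.83-fold, without overlap of the arrays, and 18.5% of all genes were lower on all 3 numbers. It did not pass (adjusted p = 0.763, or 0.197 with the block), and 10.3% of all genes did not overlap in this comparison. With apoA-I the difference was -0.29 (interval -0.88 to 0.29), and the groups overlapped. Abcg1 ran the other way. It was higher in MyD88-null cells, by 0.34 (interval -0.14 to 0.82) in controls and by 0.81 (SE 0.216, interval 0.33 to 1.29), or 1.75-fold, with apoA-I. The latter was higher by 0.87, 0.91 and 0.64 in replicates 1, 2 and 3, without overlap, where 21.3% of all genes were higher on all 3. It did not pass (adjusted p = 0.916, or 0.111 with the block), and 5.63% of all genes did not overlap there. The genotypes also did not overlap for Nr1h3 (0.39) and Apoc2 (0.38) with apoA-I, and for Abcg1 and Abcg4 in controls.

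None of the 10 members passed between genotypes, in control cells (0.0956% of all genes did, 0.591% with the block) or with apoA-I (0.0657%, or 0.227% with the block). At an unadjusted p under 0.05 there was 1 member in each, Abca1 and Abcg1 in turn, against 3.51% and 3.92% of all genes. Leaving out Abcg4, the 7 remaining members differed by -0.10 to 0.32 in controls and by -0.26 to 0.39 with apoA-I.

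**Figure D4:**
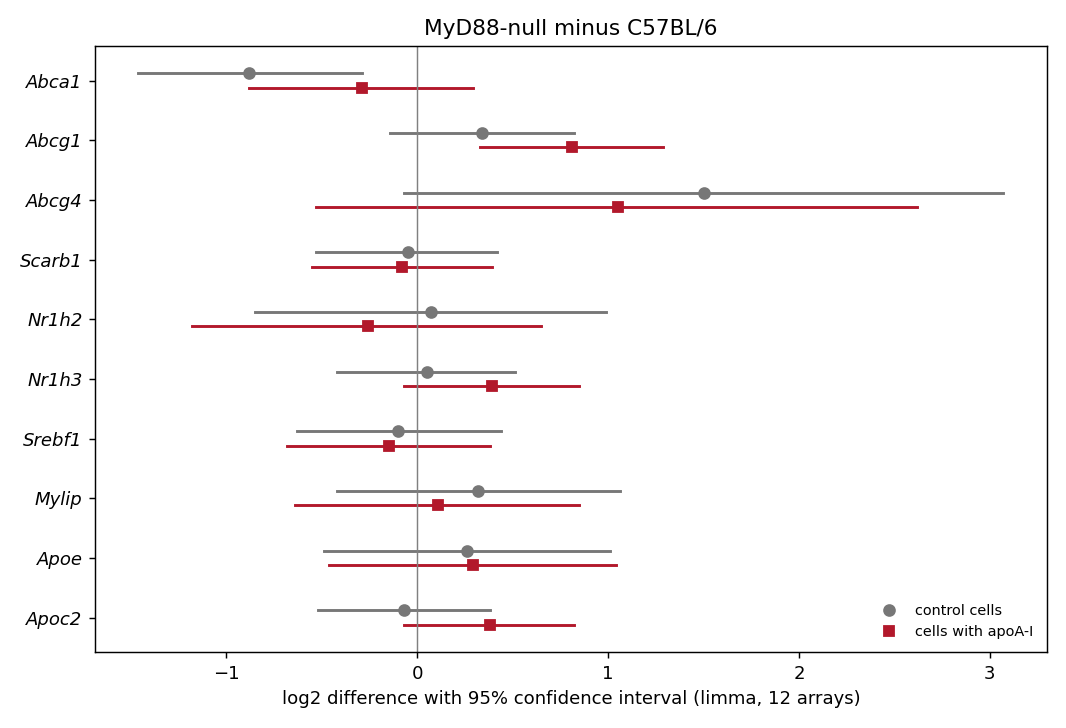
Log2 difference between MyD88-null and C57BL/6 cells for each gene, with its 95% confidence interval from limma, in control cells and in cells with apoA-I. Abca1 in controls (-0.88) and Abcg1 with apoA-I (0.81) are the estimates whose intervals leave out 0, and those of Abcg4 rest on C57BL/6 arrays of which 1 in 6 had its probe well above background.

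Other genes of the pathway were taken from fixed lists. Of 18 genes listed as further LXR targets, 17 were tested and none passed in any comparison, with a median average change of -0.12. Whether LXR regulates each listed gene, Nr1h4 among them, was not tested here. With the experiment as a block 2 of 17 passed on average, a share near the 11.5% of all genes. One was the bile acid receptor gene Nr1h4 (1.11, SE 0.258, adjusted p = 0.0287), which also passed in MyD88-null cells alone (1.61, adjusted p = 0.0492, where 4.07% of all genes did) and was well above background on 2 of 3 MyD88-null controls. The other was the sterol transporter gene Abcg8, which was well above background on 2 of 3 C57BL/6 and 1 of 3 MyD88-null controls. It was kept only through the treated groups, where it was high, so its call is no independent result. Abcg8 read -3.38, -5.84 and -4.77 in C57BL/6 controls and -3.37, -3.81 and -3.45 with apoA-I.

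The same block called 1 of the 17 in control cells and 2 with apoA-I between genotypes, where 0.591% and 0.227% of all genes were called. Both are fatty acid genes and were lower in MyD88-null cells. Scd1, the stearoyl-CoA desaturase gene, read 1.65, 0.62 and 0.30 in C57BL/6 and -0.20, -0.57 and -0.79 in MyD88-null controls, a difference of -1.38 (SE 0.168, adjusted p = 0.0111 with the block, 0.634 without). With apoA-I it differed by -1.23 (SE 0.168, adjusted p = 0.0367 with the block, 0.998 without). Elovl6, a fatty acid elongase gene, differed by -1.13 with apoA-I (SE 0.160, adjusted p = 0.0422 with the block, 0.942 without). Srebf1, the regulator of both, differed by -0.10 in controls and -0.15 with apoA-I.

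Of 15 genes for cholesterol delivery and other sterol transporters, Cav1 was the 1 gene past the threshold, on average over genotypes, where 3.15% of all genes were. Cav1 encodes caveolin-1, a membrane protein that binds cholesterol. It read 2.94, 3.46 and 2.90 in C57BL/6 controls and 4.61, 4.95 and 4.33 with apoA-I, and 1.39, 3.09 and 2.20 in MyD88-null controls and 2.89, 3.98 and 3.65 with apoA-I. Its average change was 1.4 with an SE of 0.303 and passed in limma (adjusted p = 0.0341, and 0.00296 with the block), and with the block it also passed in C57BL/6 cells (1.53, adjusted p = 0.0213) and in MyD88-null cells (1.28, adjusted p = 0.0367).

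Of 15 LXR partners and cofactors 14 were tested and none passed. With the block Pparg, a nuclear receptor gene of lipid-loaded macrophages, was the 1 of 14 called on average (-0.65, SE 0.165, adjusted p = 0.039). Of 6 genes for the processing of SREBP proteins none passed without the block, and with it Insig1, which retains these proteins in the endoplasmic reticulum, was the 1 of 6 called on average (0.50, SE 0.108, adjusted p = 0.0217). The share of all genes called in that fit was 11.5%. Insig1 read 0.93, 0.90 and 0.56 in C57BL/6 controls and 1.46, 1.29 and 1.20 with apoA-I, and 0.49, 0.29 and 0.61 in MyD88-null controls and 0.97, 0.95 and 0.91 with apoA-I, without overlap in either genotype.

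The genes whose levels followed Abcg1 most closely over the 12 arrays were Sh3bp5l (Pearson r = 0.971), Rgl2 (0.962), Acp6 (0.960), Tef (0.960) and Zfp239 (0.959), and those nearest Abca1 were Pik3cb (0.916), Hivep2 (0.904), Herpud1 (0.901), Lcp2 (0.900) and Spred1 (0.900), out of 16728 genes. The 12 points share slides, scaling and replicate numbers, so these values are descriptions. Of the 5 nearest Abcg1, Zfp239 passed in C57BL/6 cells (-1.10, limma adjusted p = 0.0278), where 0.830% of all genes did. Of the 5 nearest Abca1, Lcp2 and Spred1 passed in MyD88-null cells, at 1.87 (adjusted p = 0.0202) and 2.01 (adjusted p = 0.02). There 1.14% of all genes passed. These neighbours were picked by correlation over the same treated and control arrays, so their calls are no independent result.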

How the data were processed

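RNA of 12 samples was measured on one-colour arrays. The submitters' processing notes name Agilent Feature Extraction 9.5, and the file headers give 9.5.1.1 or 9.5.3.1. The processed intensity is the authors' Cy3 signal, with spatial and multiplicative detrending switched on and background correction off per the file headers, and is not scaled between arrays. Mean spot and local background intensity in the deposited files are raw. A deposited table of the same arrays follows log10 of the processed intensity (r of 0.993 or higher, column medians 1.822 to 1.868). Its log10 scale was read from that match, its centring and normalization stay unknown, and it served as an alternative.

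From the deposited intensity, log2 values were taken relative to each array's 75th percentile. Outlier spots were left out and spots of a probe averaged. A probe was kept if some group had it well above background on each of its 3 arrays (24350 of 41174), and the probe with the highest mean stood for a gene. Names come from RefSeq accessions and symbols (GRCm38.p6, 22951 probes by accession). limma 3.58.1 in R 4.3.3 fitted 4 group means to 12 arrays, with two-sided p-values adjusted over 16744 genes by the Benjamini-Hochberg method and a threshold of 0.05. The number of arrays limits the precision. The fit was tested on simulated data.

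Replicate numbers were taken to pair the samples, because the design text describes 3 replicate experiments. All 18 correlations of same-numbered deviations from the group means were between 0.296 and 0.859. That 12 of 12 samples correlated best with their own number adds little, because the deviations of a group sum to 0. All replicate 3 arrays were scanned on day 3 with version 9.5.3.1. Those of replicates 1 and 2 were scanned on days 1 and 2 with 9.5.1.1. Replicate 3 and this scan batch cannot be told apart. In MyD88-null cells, control replicate 1 and apoA-I replicate 2 were scanned on day 1, and control replicate 2 and apoA-I replicate 1 on day 2. Those same-numbered pairs thus cross slide and scan day, while C57BL/6 replicates 1 and 2 each share both. Within days 1 and 2 the MyD88-null change was 1.27 and 0.33 for Abca1, -0.80 and -0.59 for Abcg1, and -1.77 and -0.64 for Mylip. Fits with the number as a block are given where they change a call. Slide (5) and scan day (3) were alternatives, as were other scalings, filters and probe rules, the deposited table, the treatments of the descriptions and leaving out each array. Named genes are all members, the genes of the fixed pathway lists that passed, and the 5 nearest to Abca1 and Abcg1. Marker genes that passed are named too. Members and lists were chosen with earlier results of these data known. The Abcg8, Nr1h4, Scd1, Elovl6, Pparg, Insig1, Fasn, Cd3e, Lck and Pdgfra values were added after the block fit and the promoter search were seen. One of the fixed lists is not reported here.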

Additional observations from a re-analysis of the deposited data

Results flagged for a closer look

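Nr1h2 was the 1 member whose pairs all went one way in one genotype and all the other way in the other. The share of all genes with such pairs was not counted, so this does not set Nr1h2 apart from other genes. Its change with apoA-I was 0.01, 0.10 and 0.29 in C57BL/6 replicates 1, 2 and 3 and -0.43, -0.10 and -0.07 in MyD88-null replicates. The MyD88-null response minus the C57BL/6 response was -0.33 (SE 0.584, interval -1.63 to 0.97), with an adjusted p of 1 in limma, or 0.798 with the experiment as a block, so the difference did not pass. It lay between -0.72 and 0.00 over the 26 alternatives.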

How the results depend on the processing

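Over 26 alternatives, 12 of them leaving out 1 array each, the 60 member values (10 genes in 6 comparisons) gave 1554 further values. Of these, 1535 stayed on the same side of the threshold, 15 newly passed it and 4 no longer passed. No called value changed sign, while 97 values that did not pass did. In C57BL/6 cells the count of members called went from 0 to 1, Abcg1, with quantile normalization, normexp, probes above background on all 12 arrays, the mean over probes, the replicate block, scan day, the deposited table and the 75th percentile over all spots (added after the data were seen). It was 2 with slide as a random block, which added Mylip. On average over genotypes it went from 1 to 0 with the array median, with no filter, with the treatments of the descriptions and without both samples in conflict; to 2 with normexp, with the replicate block and without MyD88-null apoA-I replicate 3; and to 3 with slide as a random block. Leaving out 1 array gave 1 to 2 called on average. The replicate block changed no other member call. Counts stayed at 0 in the other 4 comparisons. The cause of these shifts was not tested. Centring on the array median moved the median of all genes by -0.398 in the MyD88-null response, by -0.21 on average, by -0.337 in the difference of responses and by 0.242 between controls. Dim signal limits Abcg4 and the other Mylip probe.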
